A study of Mus musculus with 50 samples.

Results

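The position of transcripts inside liver cells, over the nucleus or over the cytoplasm, was compared across genes and between genotypes. The data come from CosMx spatial molecular imaging, in which fluorescent probes are read in cycles on a tissue section and each decoded spot is 1 transcript of 1 target, placed in a segmented cell and in a compartment of it. All transcripts inside a segmented cell were counted per target with the compartment Nuclear and with the compartment Cytoplasm, and 998 of the 1000 gene targets of the panel had such transcripts. The 10 Negative targets, probes that match no transcript, were counted the same way as background. The counts covered all 50 fields of view, 25 of each genotype, and 5895335 transcripts, of which 3352064 were nuclear and 2543271 cytoplasmic. A further 1140832 transcripts in cells carried the compartment Membrane and 520976 lay outside cells. The nuclear share used below is the percentage of nuclear among nuclear plus cytoplasmic transcripts.

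Control mice were wildtype C57BL/6 and HIRA KO mice were C57BL/6 carrying HIRA fl/fl, and both received AAV8-Tbg-Cre by retro-orbital injection at 6 months of age. Livers were collected 12 months later, at 18 months, and 5 µm sections of the fixed, paraffin-embedded median lobe were imaged. The Tbg promoter is active in hepatocytes, so the deletion is made in hepatocytes and inherited by cells that derive from them, and Hira itself was not a target of the panel, so the deletion was not checked here. HIRA is a chaperone that deposits the histone variant H3.3 in chromatin. Each field of view is labelled by genotype only, without a mouse. Consecutive fields of 1 genotype formed 6 tissue areas, 3 Control and 3 HIRA KO with 8 or 9 fields each, which were taken as the replicates, so p-values measure the spread between these areas. The methods of the study state 3 biological replicates per genotype. The Control areas filled 1 column of the slide and the HIRA KO areas the second, so position and genotype cannot be told apart across columns, whereas each of 3 slide rows held 1 area of each genotype.

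A messenger RNA is made, spliced and processed in the nucleus and exported to the cytoplasm, where it is translated and finally degraded. Transcripts with a short life, or that leave the nucleus slowly, are found to a larger part in the nucleus, whereas long-lived messages accumulate in the cytoplasm. Hepatocytes carry large amounts of such stable messages for the proteins they secrete into plasma, while some long noncoding RNAs, of which Neat1 is the best known, stay in the nucleus and build structures there. In a section the nuclear outline is drawn in the plane of the image, so cytoplasmic transcripts above or below a nucleus also carry the label Nuclear.

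The Nuclear label followed the position in the cell. The median distance of a transcript from the centre of its cell ranged over the 6 areas from 26.6 to 30.7 pixels for Nuclear, from 51.9 to 61.1 for Membrane and from 53.1 to 63.5 for Cytoplasm. Membrane transcripts lay slightly closer to the centre than Cytoplasm transcripts in every area, so distance does not bear out the split between these labels. The areas held between 616798 and 1279867 nuclear plus cytoplasmic gene transcripts. Such depth gave 95% Wilson intervals of at most ±0.124 points for the overall nuclear share of an area and of at most ±5.17 points for the share of any gene named from the tests in 1 area. These intervals cover counting error only. Background was considerable, since the mean Negative target had 33.6 to 43.1% of the count of the mean gene target, and 193 of the 998 genes did not exceed the highest Negative target, at 511.7 transcripts per area.

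Over all genes, the nuclear share was 59.6, 60.4 and 56.6% in Control areas 1 to 3 (mean 58.8 ± 2.0, SD, n = 3) and 55.8, 58.0 and 52.2% in HIRA KO areas 1 to 3 (55.3 ± 2.93, SD, n = 3). The groups overlapped, because HIRA KO 2 lay above Control 3. The difference of -3.51 points did not pass a two-sided exact permutation test (p = 0.2), which cannot go below 0.1 with 3 areas against 3. Within the slide rows the HIRA KO area lay lower each time, by -3.76, -2.38 and -4.38 points. When each cell with at least 20 gene counts weighed alike, as the mean over cells of the share per cell, the difference was -1.16 points (exact permutation p = 0.5). It was -1.87, 1.22 and -2.83 within the rows, so that row 2 turned. Without the 10 genes with most transcripts it was -2.03 points (exact permutation p = 0.4). Single fields of view spread more widely than the areas, from 52.2 to 63.4% in Control 1, from 53.5 to 69.7% in Control 2 and from 48.1 to 62.9% in HIRA KO 1. The 10 Negative targets had a lower nuclear share than genes in all 6 areas. It was 31.7, 34.6 and 37.9% in Control areas and 38.5, 41.03 and 35.6% in HIRA KO areas. These groups also overlapped, and the difference of 3.65 points had the opposite sign from that of the genes (exact permutation p = 0.2).

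**Figure D1:**
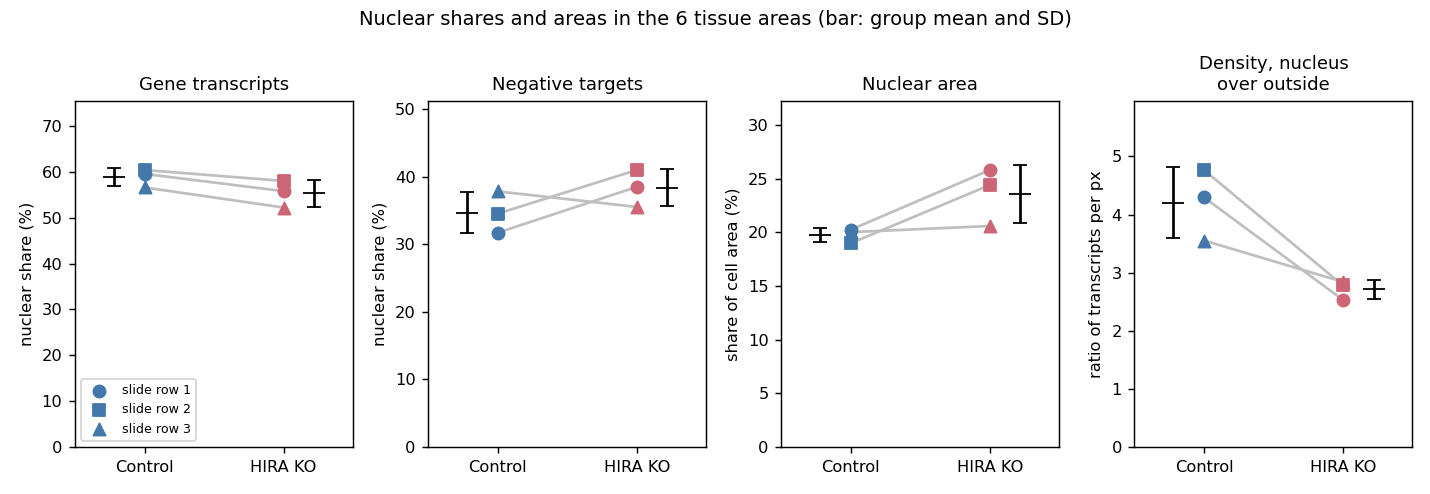
Nuclear share of gene transcripts and of Negative targets, nuclear area as a percentage of cell area, and the ratio of gene transcripts per pixel over and outside nuclei (y axes), in Control and HIRA KO, with 1 point per tissue area shaped by slide row, lines joining a row and bars for the group mean and SD. Gene shares lie between 56.6 and 60.4% in Control and between 52.2 and 58.0% in HIRA KO, Negative shares lie between 31.7 and 41.03%, and the density ratio lies at 2.53 to 2.84 in HIRA KO against 3.55 to 4.77 in Control.

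The outlines of cells and nuclei were set beside these shares. Nuclei took up 20.3, 18.99 and 20.02% of cell area in Control areas and 25.8, 24.4 and 20.6% in HIRA KO areas. All HIRA KO areas lay above all Control areas, HIRA KO 3 by little (exact permutation p = 0.1, the smallest possible). The median nuclear area overlapped, with 2832, 2992 and 2672 square pixels in Control and 2744, 2956 and 2640 in HIRA KO (exact permutation p = 0.7). The median cell area was 13231, 16044 and 10625 square pixels in Control areas and 8395, 9946 and 11372 in HIRA KO areas, where HIRA KO 3 lay above Control 3. Transcripts were then set against the area they lay in, a measure chosen after these values were seen. Over nuclei there were 164, 238 and 143 gene transcripts per 10000 square pixels in Control and 186, 209 and 230 in HIRA KO, which overlapped. Outside nuclei, with Membrane included, there were 38.2, 49.9 and 40.1 in Control and 73.4, 75.1 and 80.9 in HIRA KO, and all 3 areas of HIRA KO were above those of Control (exact permutation p = 0.1). The ratio of both densities was accordingly 4.30, 4.77 and 3.55 in Control and 2.53, 2.78 and 2.84 in HIRA KO (exact permutation p = 0.1). Negative targets outside nuclei also stood higher in HIRA KO, at 21.7, 33.9 and 24.4 per 1000000 square pixels in Control against 40.3, 44.3 and 41.8, and their part in the gene densities was not tested. The ratio of both densities for Negative targets was 1.35, 1.67 and 1.68 in Control and 1.24, 1.42 and 1.41 in HIRA KO and overlapped.

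The mix of cells classed by markers also differed between areas. Cells led by hepatocyte markers were the largest marker class in every area and made up 38.2, 60.7 and 42.9% of cells in Control areas and 49.1, 61.6 and 65.2% in HIRA KO areas. Cells led by no marker list numbered 4173 of 8863, 2224 of 7074 and 3163 of 7622 in Control. In HIRA KO they numbered 3306 of 10542, 2523 of 10396 and 1185 of 7635. The percentages above therefore also depend on how many cells could be classed. Hepatocyte-marker cells had a nuclear share of 58.8, 59.2 and 52.3% in Control and 53.3, 54.9 and 50.2% in HIRA KO. Among cell classes with at least 50 cells, the share was 62.3 to 73.2% in cholangiocyte-marker cells, 61.3 to 66.2% in stellate-marker cells, 64.3 to 72.2% in endothelial-marker cells and 61.7 to 71.5% in Kupffer-marker cells, all above the hepatocyte-marker cells of their own area. Cells led by T and NK cell markers, with at least 50 cells only in Control 3 (74.1%) and HIRA KO 1 (66.1%), also lay above them. Cells led by monocyte or dendritic markers had 59.0, 68.6 and 64.2% in Control and 51.3, 69.97 and 51.5% in HIRA KO, below the hepatocyte-marker cells in HIRA KO 1. Cells led by B-lineage markers, at 49.8 to 64.9% in 4 areas, lay on both sides of them. Per-gene shares over whole areas therefore also carry which cells a gene was read in, and fewer cells of a type and less RNA per cell cannot be told apart in such sums. For this reason each gene was also compared with the other transcripts of the same cell.

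The share was lower in image planes of higher number. The transcript table numbers 9 planes, without saying which end is the top of the section, and the nuclear share was 73.3 to 89.0% in plane 0 and 44.2 to 51.5% in plane 7. In 26 of the 27 pairs of plane and slide row the HIRA KO area had the lower share. Areas differed in how their transcripts were spread over planes, with 48.5, 21.3 and 21.6% in planes 0 to 2 in Control and 44.4, 31.8 and 24.3% in HIRA KO. In plane 3 alone, which holds the most transcripts, the share was 57.1, 63.4 and 57.0% in Control and 52.8, 50.9 and 48.3% in HIRA KO. Here the groups did not overlap, and the difference was -8.51 points (exact permutation p = 0.1).

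**Figure D2:**
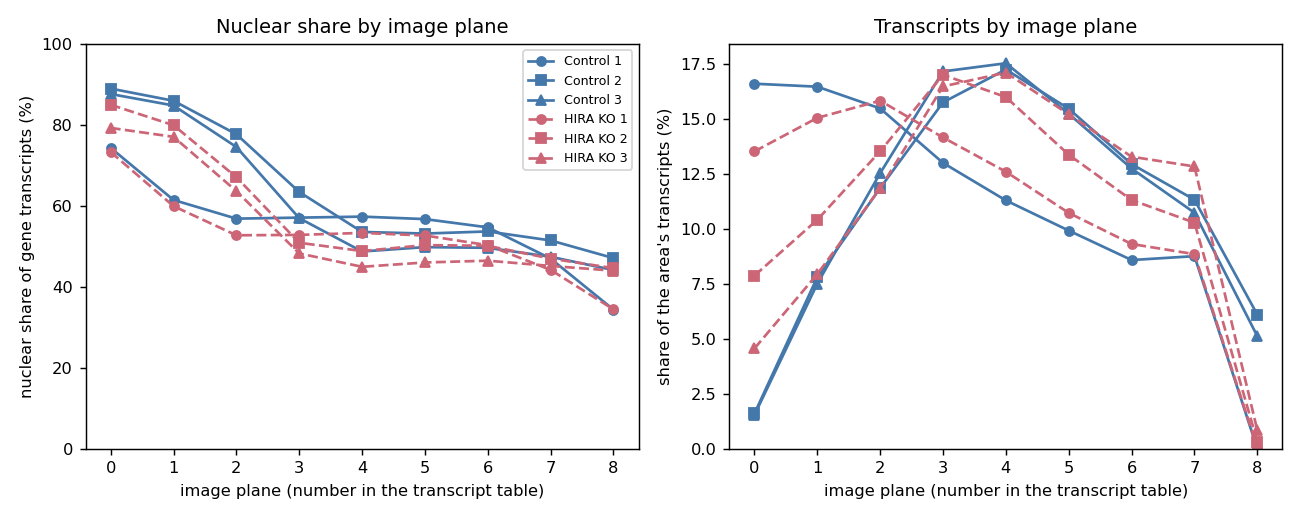
Left, nuclear share of gene transcripts in percent; right, share of an area's transcripts in percent; both against the number of the image plane, with 1 line per tissue area (solid for Control, dashed for HIRA KO). All 6 lines lie at 73.3% or more in plane 0 and at 44.2 to 51.5% in plane 7, and Control 1 and HIRA KO 1 hold more transcripts in planes 0 to 2 (48.5 and 44.4%) than the other 4 areas.

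Which genes lie over the nucleus and which over the cytoplasm was asked with edgeR's quasi-likelihood test on the 12 sums of 6 areas and 2 compartments, with the area as a block. A log2 ratio of 0 stands for the typical gene after scaling, and the median share of all 998 genes was 58.9%, with quartiles of 53.8 and 64.1%. At an adjusted p under 0.05, 355 genes (35.6%) were more nuclear than the typical gene, 387 (38.8%) more cytoplasmic and 256 neither. Scaling by library size alone moved the median of all genes by 0.14 on the log2 scale and gave 463 nuclear and 278 cytoplasmic genes. The comparison inside cells, a log2 odds ratio against all other genes of the same cell tested with limma, called 448 genes (44.9%) nuclear and 277 (27.8%) cytoplasmic. It included all 355 nuclear genes and 276 of the 387 cytoplasmic genes of the first test, and called 0 of them in the opposite direction. The median log2 odds over all genes were 0.0978, so here too a value of 0 did not stand for the typical gene. With the median of each area set to 0, 364 genes were nuclear and 350 cytoplasmic. After the mean Negative target was subtracted from each compartment, 315 genes were nuclear and 196 cytoplasmic among 980. Subtraction moved the median of all genes by 1.2 on the log2 scale, so a ratio of 0 no longer stood for the typical gene. Of the genes called before, 243 and 142 kept their call, whereas 12 nuclear and 17 cytoplasmic genes turned.

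**Figure D3:**
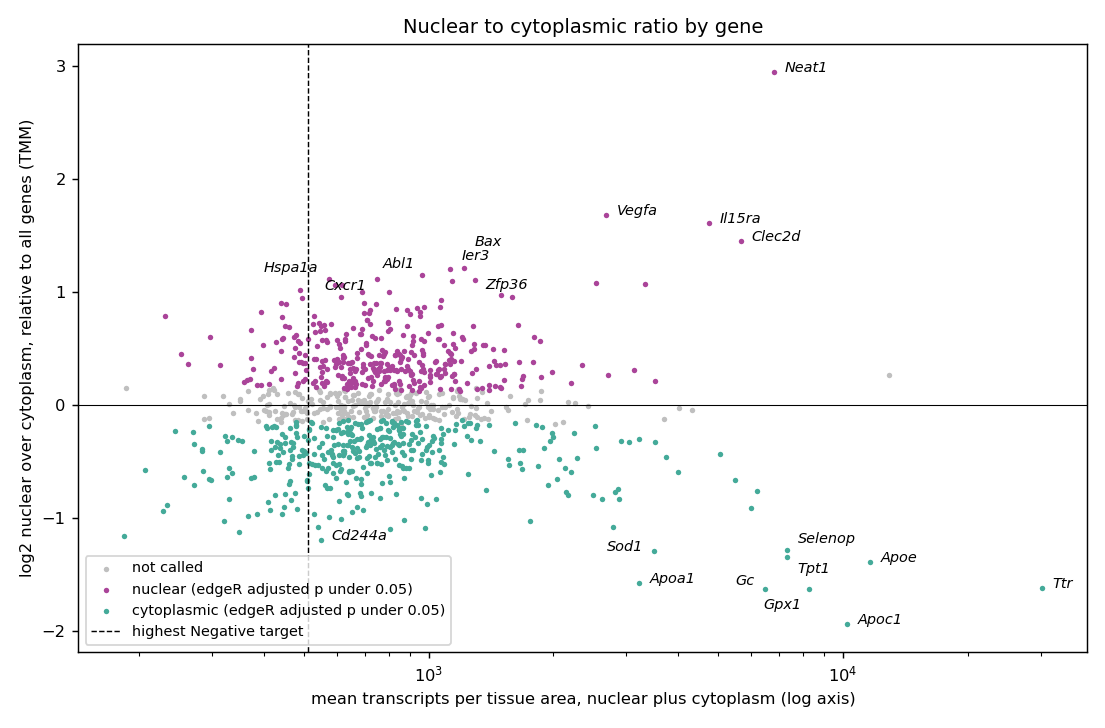
Log2 ratio of nuclear over cytoplasmic transcripts relative to all genes (y axis) against mean transcripts per tissue area on a log axis (x axis), 1 point per gene, coloured by the edgeR call, with a dashed line at the highest Negative target (511.7). Neat1 stands alone at 2.95, and the most cytoplasmic genes, Apoc1 at -1.94 and Ttr at -1.62, are among those with most transcripts.

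Neat1, the long noncoding RNA that forms the scaffold of nuclear paraspeckles, was the most nuclear gene. Its nuclear share was 92.9, 93.1 and 94.9% in Control and 90.3, 90.4 and 88.2% in HIRA KO, from a mean of 6801 transcripts per area. All 3 HIRA KO areas lay below all 3 Control areas, though every area was far above the typical gene. The log2 ratio was 2.95 ± 0.12 (SE, edgeR adjusted p = 4.49e-16), and the odds inside cells stood at 3.28. In cells led by hepatocyte markers, where 75.1 to 89.8% of its transcripts lay, the share was 94.6, 93.8 and 95.8% in Control and 92.3, 91.2 and 89.1% in HIRA KO. The genotype difference in the log2 ratio, -0.69 ± 0.22, did not pass the test over all genes (edgeR adjusted p = 0.26). Nuclear Neat1 was at 5350, 10093 and 10540 per 1000000 gene transcripts in Control and at 4095, 4556 and 5977 in HIRA KO, whereas cytoplasmic Neat1 was at 408, 746 and 566 and at 440, 481 and 803. Nuclear levels overlapped through Control 1, and cytoplasmic levels overlapped throughout. The gene lies at chr19:5824708-5845478 on the minus strand (GRCm38, GENCODE vM21) and its longest annotated transcript is 1 exon. The other long noncoding RNA measured, the imprinted Meg3, stood on the opposite side, with a share of 53.8% and a log2 ratio of -0.32 ± 0.06 (edgeR adjusted p = 4.61e-05). This call was lost inside cells (-0.13, limma adjusted p = 0.114), where the median of all genes was 0.0978, and after background subtraction.

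Vegfa, the growth factor that maintains blood vessels, was the most nuclear protein-coding gene. Its share was 83.6, 82.5 and 84.0% in Control and 80.1, 81.5 and 82.9% in HIRA KO, which overlapped. The log2 ratio was 1.68 ± 0.09 (edgeR adjusted p = 3.17e-14). Il15ra, the chain of the interleukin-15 receptor that binds the cytokine, had shares of 77.9, 85.2 and 82.5% in Control and 80.6, 83.9 and 79.9% in HIRA KO (log2 ratio 1.61 ± 0.10). Clec2d, a lectin-like ligand of natural killer cell receptors, had 76.8, 82.3 and 84.7% in Control and 73.9, 80.1 and 80.9% in HIRA KO (1.45 ± 0.12). In both genes the genotypes overlapped. The rest of the 10 most nuclear genes had mean shares of 75.8 to 77.3%. They were Bax, which permeabilizes mitochondria in apoptosis (1.22), the immediate early gene Ier3 (1.202), the kinase gene Abl1 (1.15), the inducible Hsp70 gene Hspa1a (1.12), the chemokine receptor gene Cxcr1 (1.12) and Zfp36 (1.11), whose protein destabilizes short-lived messages. All 10 were nuclear inside cells too, with log2 odds between 1.2 and 3.28. After the mean Negative target was subtracted, the shares of Hspa1a and Cxcr1 were 100% in every area and those of Abl1 98.6 to 100%. Cytoplasmic counts of these genes were thus close to or below background, which limits the size of their ratios. For Bax, Ier3 and Zfp36 the subtracted shares ranged from 85.8 to 100%.

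At the other end stood messages for secreted apolipoproteins and carriers. Apoc1, an apolipoprotein of plasma lipoproteins, had the lowest nuclear share of any gene tested, 31.3, 25.8 and 27.9% in Control and 28.4, 28.4 and 24.5% in HIRA KO. The log2 ratio was -1.94 ± 0.13 (edgeR adjusted p = 1.44e-12). The genotypes overlapped, and the difference was -0.01 ± 0.24. Gpx1, the cytosolic glutathione peroxidase, had shares of 34.5, 29.6 and 35.97% in Control and 34.7, 32.3 and 26.7% in HIRA KO (-1.63 ± 0.12). Gc, the vitamin D-binding protein gene, had 39.3, 31.03 and 34.2% in Control and 31.1, 31.9 and 26.8% in HIRA KO (-1.63 ± 0.11). Both overlapped between genotypes. Apoa1 (-1.57) and Apoe (-1.39), further apolipoprotein genes, Tpt1 (-1.34), a translationally controlled protein gene, the superoxide dismutase gene Sod1 (-1.29) and Selenop (-1.28), which carries selenium in plasma, followed with mean shares of 33.1 to 37.8%. Cd244a (-1.19), a receptor of natural killer cells, completed the 10 with 39.2%, but its 548 transcripts per area were close to the highest Negative target, and the Negative targets themselves had mean shares of 32.7 to 40.7%.

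Ttr, which carries thyroid hormone and retinol in plasma, had the most transcripts per area among these genes, with 30120. Its nuclear share was 35.4, 35.2 and 42.97% in Control and 28.4, 26.7 and 27.1% in HIRA KO, with every HIRA KO area below every Control area. Ttr also differed in amount. Cytoplasmic Ttr was at 9827, 12548 and 12019 per 1000000 gene transcripts in Control and at 16608, 32289 and 35873 in HIRA KO, whereas nuclear Ttr was at 5375, 6811 and 9055 and at 6593, 11738 and 13345. The cytoplasmic levels did not overlap and the nuclear levels did. The genotype difference in the log2 ratio, -0.60 ± 0.36, did not pass the test (edgeR adjusted p = 0.69), and its odds inside cells differed by -0.48 ± 0.18 (limma adjusted p = 0.24).

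Gene lists differed in where their members lay, and their counts are set here against 35.6% nuclear and 38.8% cytoplasmic calls and a median log2 ratio of -0.03 over all genes. Of 18 immediate early and short-lived messages, 11 were nuclear, 2 cytoplasmic and 5 neither, with a median log2 ratio of 0.41. Beside Vegfa, Ier3 and Zfp36 the stress-inducible Gadd45b stood at 0.70, whereas the proto-oncogene Myc stood at -0.24 and the cell cycle inhibitor gene Cdkn1a at -0.15. Inside cells, with log2 odds of -0.14 and -0.06, neither was called cytoplasmic (limma adjusted p = 0.0669 and 0.524). That test is against 0, whereas the median of all genes inside cells was 0.0978. Of 7 heat shock and folding genes, 4 were nuclear and 1 cytoplasmic (median 0.28). Hspb1, a small heat shock protein gene, stood at 1.099 and Xbp1, a factor of the unfolded protein response, at 0.60, but Hsp90ab1, the constitutive cytosolic Hsp90, at -0.79. Its inducible counterpart Hsp90aa1 stood at 0.28.

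Genes for chromatin and for transcriptional control lay closer to the median of all genes. Of 14 chromatin and histone genes, 6 were nuclear and 4 cytoplasmic (median 0.12). The histone deacetylase gene Hdac3 stood at 0.62 and the checkpoint kinase gene Chek2 at 1.005, whereas the DNA methyltransferase gene Dnmt1 was at -0.46 and Ezh2, the enzyme that writes H3K27 methylation, at -0.36. Of 37 nuclear receptor and transcription factor genes, 18 were nuclear and 10 cytoplasmic (median 0.12). The signal transducer Stat5b (0.93), the retinoid X receptor gene Rxrb (0.90) and the lipid regulator Srebf1 (0.71) were on the nuclear side. Rxrb, at 453 transcripts per area, lay below the highest Negative target (511.7). The cytoplasmic ones were led by the progesterone receptor gene Pgr (-1.09), whose share of 40.7% was close to that of the Negative target with the highest share. Of 31 receptor tyrosine kinase genes, 10 were nuclear and 10 cytoplasmic (median 0.03), which is close to all genes.

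On the cytoplasmic side stood messages of hepatocyte secretion, respiration and matrix. Of 15 secreted plasma protein genes, 9 were cytoplasmic and 3 nuclear (median -0.77). The 3 nuclear ones were the acute-phase genes Crp (0.46) and Saa1/2 (0.39) and the growth factor gene Igf1 (0.35). Of 5 genes for translation and respiration, 4 were cytoplasmic, namely Tpt1, the ATP synthase genes Atp5e (-1.02) and Atp5b (-0.83) and the translation factor gene Eif5a (-0.32), while the cytochrome oxidase gene Cox4i2 stood at 0.25 (median -0.83). Of 5 hepatocyte enzyme genes (median -0.38), the glutamine synthetase gene Glul (-0.74), Glud1 (-0.47), Arg1 (-0.38) and Hmgcs1 (-0.30) were cytoplasmic. The fatty acid synthase gene Fasn (0.30) was nuclear. Inside cells, Arg1 (log2 odds -0.11, limma adjusted p = 0.389) and Hmgcs1 (-0.10, limma adjusted p = 0.167) were not called, with the median of all genes there at 0.0978. Of 20 collagen genes, 11 were cytoplasmic and 3 nuclear (median -0.27), with Col3a1 at -0.90, Col12a1 at -0.77 and the basement membrane collagen gene Col18a1 at 0.39. Only 14 of the 20 exceeded the highest Negative target (511.7 transcripts per area), and Col3a1, at 447.5, did not. The immunoglobulin list also held the B-lineage genes Jchain and Mzb1, and of its 7 genes 4 were cytoplasmic and 1, Mzb1, nuclear (median -0.40). Mzb1, at 503 transcripts per area, did not exceed the highest Negative target either. The MHC class II list also held Cd74 and Ciita, and of its 8 genes 4 were cytoplasmic and 3, Ciita among them, nuclear (median -0.18). Of 6 metallothionein and antioxidant genes, 3 were cytoplasmic and 2 nuclear (median -0.12). Both haemoglobins, of red cells that have no nucleus, were measured, and Hbb was cytoplasmic (-0.44) whereas Hba-a1/2 was not called (0.15 ± 0.13).

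**Figure D4:**
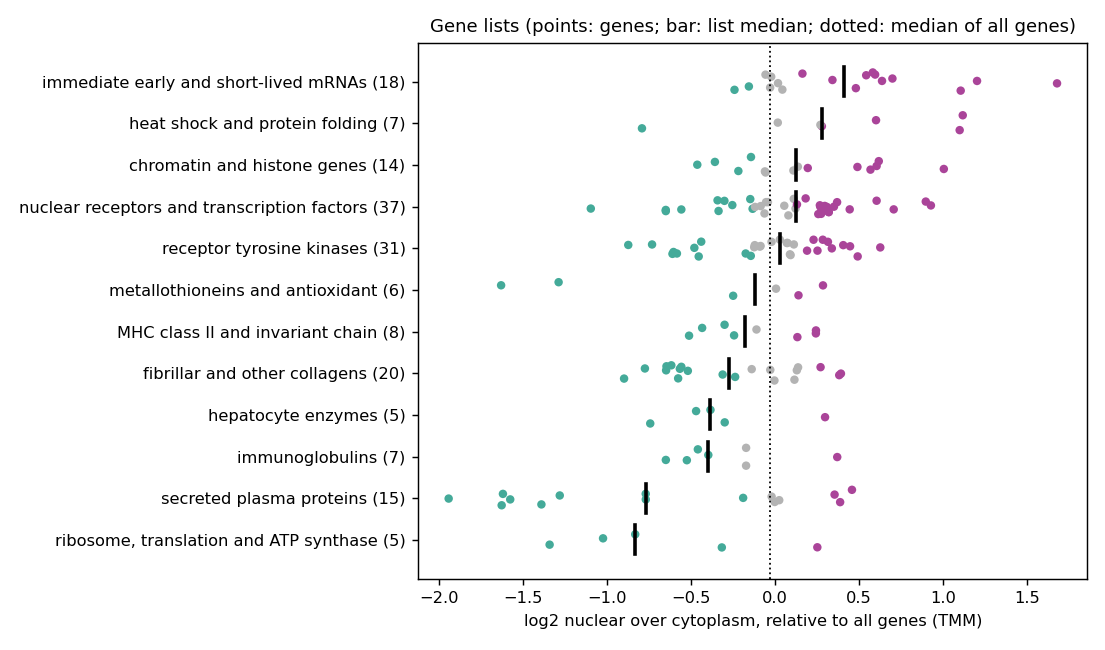
Log2 nuclear over cytoplasmic ratio relative to all genes (x axis) of the members of 12 gene lists, 1 point per gene coloured by its edgeR call, with the list median as a bar, the number of genes in parentheses and the median of all genes (-0.03) dotted. Immediate early genes spread to 1.68 around a median of 0.41, and secreted plasma proteins to -1.94 around -0.77.

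Subtracting the mean Negative target left some of these counts and changed others. Over all genes, 315 of 980 were then nuclear and 196 cytoplasmic, with the median log2 ratio at 1.2. The list counts below are therefore not on the same scale as those before subtraction. Among immediate early genes 10 were then nuclear and 3 cytoplasmic, among secreted plasma proteins 0 and 10, among hepatocyte enzymes 0 and 4 and among genes for translation and respiration 1 and 4. Heat shock genes changed to 2 nuclear and 3 cytoplasmic, collagens to 3 and 3 and immunoglobulins to 2 and 2. Before subtraction, cell type markers also differed in where they lay. Of 11 hepatocyte markers 10 were cytoplasmic and 0 nuclear, and of 6 Kupffer cell markers all 6 were cytoplasmic, among them the complement genes C1qa (-0.54), C1qb (-0.59) and C1qc (-0.55), while of 11 T and NK cell markers 4 were nuclear and 3 cytoplasmic. Inside cells, where 44.9% of all genes were called nuclear and 27.8% cytoplasmic, the counts were 0 nuclear and 5 cytoplasmic for Kupffer markers, 1 and 8 for hepatocyte markers and 7 and 2 for T and NK cell markers. For the other lists they were 12 and 0 for immediate early genes, 6 and 1 for heat shock genes, 8 and 2 for chromatin genes, 22 and 5 for nuclear receptors and transcription factors and 14 and 8 for receptor tyrosine kinases. They were 4 and 8 for secreted plasma proteins, 1 and 4 for translation and respiration, 1 and 2 for hepatocyte enzymes, 6 and 10 for collagens, 1 and 4 for immunoglobulins, 3 and 4 for MHC class II and 2 and 2 for metallothioneins and antioxidants.

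Rank correlations of the nuclear share with properties of the gene were near 0. Across 786 annotated genes above the highest Negative target, Spearman's rho of the mean share was 0.00663 with the count (Pearson's r with log2 count -0.154), -0.0579 with the genomic span, and -0.017 with the number of exons. Across 782 coding genes it was 0.0101 with coding length. Split by coding length into 4 groups of like size, the genes had median shares between 59.2 and 59.4%. These are descriptions across genes, which share libraries and are not replicates.

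Few genes differed between genotypes in where their transcripts lay, relative to all genes. By edgeR, 1 of 998 genes passed with a lower nuclear share in HIRA KO (0.1%) and 0 with a higher one (0%), and 83 had an unadjusted p under 0.05, 45 lower (4.51%) and 38 higher (3.81%). Judged only by whether the 3 shares of each genotype overlapped, with no account of the overall shift, 54 genes were lower (5.41%) and 14 higher (1.4%). With slide row as a further term on the ratio, 9 genes passed, of which 7 were lower (0.701%) and 2 higher (0.2%). DESeq2 called 0 genes, with 41 at an unadjusted p under 0.05. The comparison inside cells with limma also called 0 genes (0%), with 155 at an unadjusted p under 0.05, and 74 after the median of all genes was set to 0 in each area.

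Ms4a1, the gene of the B-cell surface protein CD20, was the 1 gene that passed. Its nuclear share was 71.0, 71.3 and 72.4% in Control and 54.1, 66.9 and 57.0% in HIRA KO, from 649, 864 and 479 transcripts in Control and 838, 779 and 820 in HIRA KO. Control areas lay within 1.41 points of each other and every HIRA KO area lay below them, HIRA KO 2 by least. The difference in the log2 ratio was -0.69 ± 0.14 (SE, edgeR adjusted p = 0.0413), or -0.68 with slide row as a term (adjusted p = 0.00537). DESeq2 gave an adjusted p of 0.0561. Its mean of 738 transcripts per area compares with 511.7 for the highest Negative target. Cytoplasmic Ms4a1 counted 188, 248 and 132 in Control and 385, 258 and 353 in HIRA KO. The 10 Negative targets together had 1864, 2567 and 1651 and 2614, 3208 and 2731 in cytoplasm. After their mean was subtracted, the shares were 99.5, 100 and 100% in Control and 70.0, 100 and 79.8% in HIRA KO. Little or no cytoplasmic signal above background thus remained in Control and in HIRA KO 2. The call held without Control 2 or without HIRA KO 2 and was lost without any of the other 4 areas. Between 53.3 and 80.7% of Ms4a1 transcripts lay in cells led by hepatocyte markers and 0 to 46 transcripts per area in cells led by B-cell markers, a list that holds Ms4a1 itself. In hepatocyte-marker cells the share was 72.3, 71.4 and 71.9% in Control and 55.7, 64.3 and 62.4% in HIRA KO (edgeR adjusted p = 0.113). In cells led by other markers it was 64.2, 75.4 and 89.0% and 45.3, 77.9 and 45.4%, which overlapped. The gene lies at chr19:11249675-11266241 (minus strand).

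The next genes by p on the lower side included 3 that encode proteins secreted by hepatocytes, and they are given as values. Vtn, which encodes the adhesive plasma protein vitronectin, had shares of 53.3, 52.6 and 50.2% in Control and 40.8, 42.4 and 38.9% in HIRA KO. The groups were 7.75 points apart at their nearest. The log2 difference was -0.58 ± 0.14 (edgeR adjusted p = 0.102, or 0.0308 with slide row as a term). Nuclear Vtn was at 670, 1057 and 819 per 1000000 gene transcripts in Control and 939, 1089 and 1092 in HIRA KO, whereas cytoplasmic Vtn was at 586, 953 and 812 and at 1365, 1477 and 1716. The cytoplasmic levels did not overlap and the nuclear levels did. In hepatocyte-marker cells, which held 73.0 to 92.7% of its transcripts, the shares were 54.1, 52.4 and 49.9% and 39.2, 41.1 and 38.4%. Vtn is itself on the hepatocyte marker list, so the part of its transcripts in these cells is partly set by their definition. Vtn lies at chr11:78499091-78502324.

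H2-Q10, a secreted MHC class I molecule made in liver, had shares of 71.9, 65.8 and 72.5% in Control and 55.6, 57.4 and 58.4% in HIRA KO, which did not overlap. The log2 difference was -0.73 ± 0.18 (edgeR adjusted p = 0.102, or 0.00961 with slide row as a term). Nuclear H2-Q10 was at 1685, 2202 and 2479 per 1000000 in Control and 1095, 1434 and 1922 in HIRA KO, and cytoplasmic H2-Q10 at 658, 1145 and 942 and at 876, 1064 and 1366. Here both compartments overlapped, with lower mean nuclear and higher mean cytoplasmic levels in HIRA KO. H2 class I genes are near-identical in parts, and how the probes separate them is not given in the sources used here. The gene lies at chr17:35470089-35474563.

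Azgp1, the gene of the secreted zinc-alpha-2-glycoprotein, had shares of 64.6, 59.0 and 63.3% in Control and 48.3, 52.0 and 50.2% in HIRA KO, which did not overlap. The log2 difference was -0.63 ± 0.16 (edgeR adjusted p = 0.113, or 0.0291 with slide row as a term). Cytoplasmic Azgp1 was at 824, 1059 and 874 per 1000000 in Control and 1337, 1234 and 1417 in HIRA KO, and nuclear Azgp1 at 1506, 1521 and 1506 and at 1250, 1336 and 1427. Neither compartment overlapped, with higher cytoplasmic and lower nuclear levels in all 3 HIRA KO areas. Cdh1, the E-cadherin gene of epithelial junctions, had shares of 66.9, 66.9 and 61.2% and 59.1, 58.4 and 50.6%, which did not overlap, with a log2 difference of -0.46 ± 0.12 (edgeR adjusted p = 0.113, or 0.0459 with slide row as a term). The remaining genes that passed with the slide row term were chosen after their values were seen. Cd52, a lymphocyte surface antigen gene, had 65.4, 74.9 and 72.3% and 53.7, 74.2 and 54.9%, and Hba-a1/2 had 72.6, 71.8 and 56.0% and 66.2, 66.7 and 36.7%. Both overlapped between genotypes and differed within each row in the same direction.

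On the higher side, 0 genes passed without the slide row term. Spp1, the osteopontin gene expressed by bile duct cells, had the lowest p, with shares of 57.3, 56.7 and 58.4% in Control and 63.6, 67.7 and 61.7% in HIRA KO. The groups did not overlap. The log2 difference was 0.49 ± 0.12 (edgeR adjusted p = 0.102, or 0.0291 with slide row as a term). After the mean Negative target was subtracted, the shares of Spp1 were 75.3, 100 and 73.6% in Control. In HIRA KO they were 79.2, 87.2 and 100%, so the subtracted shares overlapped. Its counts were 661, 446 and 622 transcripts in Control and 1108, 1289 and 661 in HIRA KO, where the highest Negative target had a mean of 511.7 per area. Its levels per 1000000 gene transcripts overlapped in both compartments (nuclear 467, 267 and 589 against 645, 682 and 363, cytoplasmic 347, 204 and 420 against 369, 325 and 225). In hepatocyte-marker cells the share of Spp1 was 47.8, 49.1 and 42.3% and 50.7, 57.2 and 52.9%, and in cells led by other markers 63.6, 75.3 and 65.8% and 72.0, 77.8 and 71.2%. Spp1 is on the cholangiocyte marker list, so its counts helped to place cells in these classes. Ddr1, a receptor for collagen, had 59.2, 62.5 and 51.8% and 65.3, 68.6 and 59.2% (0.47 ± 0.13, adjusted p = 0.155 by edgeR, or 0.0459 with slide row as a term). Its 547.5 transcripts per area were near the highest Negative target.

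The 3 other genes of lowest p on this side did not pass with or without the slide row term. Itgb4, an epithelial integrin gene, had 55.4, 59.0 and 52.8% in Control and 60.8, 65.7 and 58.7% in HIRA KO. Cxcl1, a neutrophil chemokine gene, had 70.4, 69.2 and 64.9% and 71.2, 78.8 and 69.7%. Clec14a, an endothelial cell gene, had 48.3, 50.6 and 51.7% and 56.5, 56.5 and 52.9%. Of these, Clec14a alone did not overlap. It had the lowest p inside cells, with a difference in log2 odds of 0.61 ± 0.12 (limma adjusted p = 0.13). It passed there when hepatocyte-marker cells alone were used. The median difference of all genes was itself 0.11 inside cells and 0.13 in hepatocyte-marker cells. With the median of each area set to 0, the difference of Clec14a inside cells was 0.48 (limma adjusted p = 0.215).

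**Figure D5:**
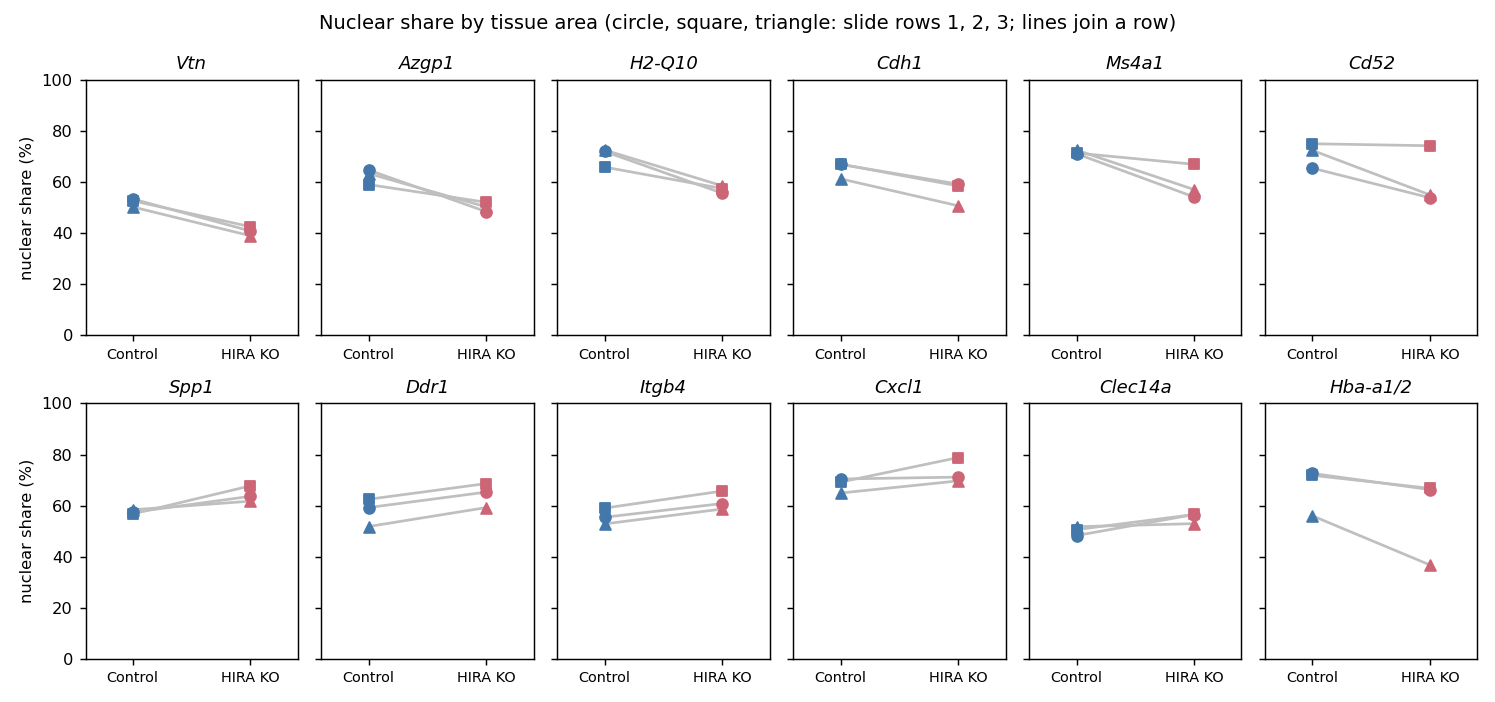
Nuclear share in percent (y axis, 0 to 100) of 12 genes in Control and HIRA KO, 1 panel per gene and 1 point per tissue area, with grey lines joining the areas of a slide row. Vtn, H2-Q10, Azgp1 and Ms4a1 lie lower in all 3 HIRA KO areas, and Spp1 lies higher, between 61.7 and 67.7% against 56.7 to 58.4%.

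Among secreted plasma protein genes, in 13 of 15 the log2 ratio was lower in HIRA KO, with a median difference of -0.23, against 529 of 998 and a median of -0.01 over all genes. The shares of 5 of the 15 did not overlap (Ttr, Azgp1, Vtn, Fgg and Selenop), against 5.41% of all genes, and 0 passed the test. Fgg, the fibrinogen gamma chain gene, had shares of 49.1, 49.5 and 49.05% in Control and 41.7, 48.7 and 40% in HIRA KO. Selenop had 42.3, 36.7 and 45.5% and 33.8, 35.1 and 33.5%. Levels per 1000000 transcripts are given for these 5 genes as ratios of the HIRA KO to the Control mean. They were 2.46 in cytoplasm and 1.49 in nuclei for Ttr, 1.94 and 1.23 for Vtn, 1.67 and 1.23 for Selenop, 1.45 and 0.89 for Azgp1 and 1.42 and 1.12 for Fgg. The cytoplasmic levels did not overlap between genotypes for Ttr, Vtn, Azgp1 and Fgg, whereas those of Selenop did, with up to 4496 in Control and from 4250 in HIRA KO. Over the other 10 genes of the list the cytoplasmic ratios ranged from 0.99 for Apoc1 to 1.80 for Gc, and 6 of them, Apoa1, Apoc1, Crp, Fn1, Lcn2 and Serpina1a, lay between 0.99 and 1.06. Immediate early genes had a median difference of 0.00 with 9 of 18 lower, and nuclear receptors and transcription factors one of 0.05 with 13 of 37 lower.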

How the data were processed

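The authors deposited raw counts from CosMx imaging (1000-plex mouse panel, run by Bruker Spatial Biology): a table of single transcripts with target, cell, compartment and image plane, a table of counts per cell, and a table of cells with their areas and mean stain intensity. Decoding and segmentation software, and the pixel size, are not given in the sources used here. The deposited intensity values served no test. Counts rebuilt from the transcripts differed from the deposited count table in 0 of 52132 cells. All cells were used, save in the mean over cells of the share per cell, which took those with at least 20 gene counts. The study's filters (at least 20 counts, area at most 5 times the geometric mean), which keep 49665 cells, were an alternative.

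Transcripts were summed per target, compartment and tissue area. Per gene, edgeR 4.0.16 (R 4.3.3) was fitted with area, compartment and compartment by genotype, TMM scaling, filterByExpr (998 genes tested) and Benjamini-Hochberg adjustment at 0.05. Inside cells, a log2 Mantel-Haenszel odds ratio per gene and area, with the cell as stratum, was tested with limma 3.58.1 over genes with at least 50 transcripts in every area. Single values were compared with two-sided exact permutation tests (scipy 1.17.1). Levels per 1000000 transcripts are relative to all nuclear plus cytoplasmic gene transcripts of an area. Alternatives were DESeq2 1.42.0, other scalings, filters, cell sets, planes and background subtraction, each area left out, and slide row as a term. Cells were called led by a marker list with at least 5 of its counts and more than of any other list. Several named genes were list members and so helped to define the classes, among them Vtn, Azgp1 and Ttr (hepatocyte), Spp1 (cholangiocyte) and Ms4a1 (B lineage). The genotype tests (edgeR and limma) and the odds ratio were tested on simulated data.

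Members, gene lists and tests were chosen with earlier results of these data known. Named genes are the 10 per direction with the largest log2 ratio among those past the threshold, on the same side in all 6 areas and above the highest Negative target (511.7 transcripts per area), for the genotype those that passed plus those of lowest p up to 5 per direction, and up to 4 members per list and direction. Coordinates were taken from the GENCODE vM21 annotation of GRCm38. Probe sequences were not analysed here.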

Additional observations from a re-analysis of the deposited data

Results flagged for a closer look

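One field of view stood apart within its area. In Control 1, field 4 had a nuclear share of 52.2% of gene transcripts, whereas the other 8 fields had 58.4 to 63.4%, a gap beyond the 95% critical value of Dixon's test. It was 1 of 12 groups of fields examined, and chance sets about 1 in 20 such groups apart. The field also held the most nuclear plus cytoplasmic gene transcripts of that area.

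Ms4a1 was the 1 gene whose nuclear to cytoplasmic ratio differed between genotypes in the test over all genes, with a log2 difference of -0.69. Its shares lay between 71.0 and 72.4% in Control areas and between 54.1 and 66.9% in HIRA KO areas.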

How the results depend on the processing

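The overall nuclear share (HIRA KO minus Control, -3.51 points) stayed below 0 under all 19 alternatives, with -4.85 to -1.94 when 1 area was left out, -8.51 in plane 3, -2.03 without the 10 genes with most transcripts and -1.16 as the mean over cells, where row 2 turned to 1.22. That of Negative targets (3.65) ranged from 2.16 to 5.21 with 1 area left out, was 6.78 within slide row 1, and reversed to -2.30 within row 3 and -3.42 in plane 3. Compartment calls (355 nuclear, 387 cytoplasmic) were 330 to 369 and 349 to 370 with 1 area left out, 463 and 278 by library size alone, 315 and 196 after background subtraction, and 172 and 194 in cells led by other markers, which are fewer. Background subtraction also moved the median of all genes by 1.2 on the log2 scale, so its calls are set against another zero. Inside cells the counts (448 and 277) were 412 to 454 and 254 to 276 with 1 area left out and 238 and 70 in cells led by other markers. They were 364 and 350 with the median of each area set to 0. The 20 genes named for their compartment kept direction and call under every alternative of the edgeR fit. The cause of these shifts was not tested.

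For genotype, the edgeR count of 1 became 0 with DESeq2, RLE factors, Membrane counted as Cytoplasm, background subtraction, plane 3, planes 3 to 8 and planes 0 to 2. It was 3 in hepatocyte-marker cells (Cdh1, Clec14a and Hgf) and 9 with slide row as a replicate block. With 1 area left out it ranged from 0 to 6: without Control 2 it was 6, without HIRA KO 2 it was 4, and without any other area it was 0. With library size alone Spp1 passed instead, in cells above the median area Cxcl1, and in cells led by other markers Ccl17. Inside cells the count of 0 became 5 in hepatocyte-marker cells and 3 with Membrane as Cytoplasm, all higher in HIRA KO. The median difference of all genes was 0.13 and 0.11 in these 2 settings. The count stayed 0 with the replicate block and with the median of each area set to 0. Differences reversed for Cxcl1 (-4.03 after subtraction, -0.37 in cells led by other markers), Clec14a (-0.073 in plane 3) and H2-Q10 (0.14 in cells led by other markers). Genes near the Negative targets are limited by background, and 3 areas per genotype limit every comparison. Hgf, Ccl17 and Cxcl1 as calls were chosen after their values were seen.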
